A study of Drosophila melanogaster with 9 samples.

Results

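A set of 10 guidance genes was followed through RNA-seq of sorted intestinal progenitors and CLIP-seq of whole intestines of Drosophila melanogaster. They are the Slit ligand gene sli, the Roundabout receptor genes robo1, robo2 and robo3, the sidestep gene side, its receptor gene beat-Ia, the semaphorin genes Sema1a and Sema2b, and the plexin receptor genes PlexA and PlexB. They were taken by name, as 10 of the 17806 named genes in each count table. The names were chosen by values that include the fold changes of both comparisons, seen in an earlier pass over these data. Their own values are therefore given as a description. Where the test over all genes calls a member, the call is counted beside the share called over all genes, no p-value is printed and nothing is concluded from it.

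The sorted progenitors came from flies of the genotype labelled swm RNAi (3 libraries) and from flies labelled wild type and titled esgTS (3 libraries, called control here). Swm is an RNA-binding protein. Each of these 6 libraries was made from 30000 to 50000 GFP-positive cells sorted from the guts of 100 adult females, so each replicate pools many animals. The age of the flies is not given in these sources. Beyond the title esgTS of the controls, the promoter that drove the RNAi and the GFP is not given either. For CLIP-seq, 2 libraries held RNA precipitated with Swm-coated beads from wild-type intestines (Swm IP) and 1 held RNA of the total lysate (input). All cell types of the gut contribute to those 3 libraries. All libraries were depleted of ribosomal RNA, and no mock precipitate was analysed here.

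Slit is a secreted protein that repels axons and migrating cells carrying Robo receptors, and Robo receptors also set the lateral position of axons in the fly nerve cord. In the adult fly gut, Slit made by enteroendocrine cells is known to act through Robo2 on the progenitors and to limit the making of further enteroendocrine cells. Semaphorins are ligands of plexins: in flies the transmembrane Sema-1a binds Plexin A and the secreted Sema-2a and Sema-2b bind Plexin B. Sidestep is a surface protein of muscle and other axon targets that attracts motor axons through the receptor Beaten path Ia.

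Library totals ran from 14627251 to 19399264 counts in libraries labelled swm RNAi and from 19428033 to 19962224 counts in the controls. The Swm IP libraries held 2451369 and 8497190 counts and the input 4615623. The swm transcript was not lower in libraries labelled swm RNAi, at 159, 137 and 135 CPM (the usual depth-scaled count unit, here on TMM-scaled library sizes), against 159, 116 and 157 CPM in the controls. Its log2 fold change was -0.0036 (SE 0.17), so each direction below is that of the libraries labelled swm RNAi. Progenitor markers summed to 5575 to 6586 CPM in libraries labelled swm RNAi and 4669 to 6645 CPM in the controls, with a count for all 10 of them in every library. Of these markers, 1 was called lower: cher, at 337, 340 and 318 CPM in libraries labelled swm RNAi, against 506, 567 and 664 CPM in the controls. In the whole intestines they summed to 744 to 820 CPM in the Swm IP libraries and 454 CPM in the input.

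In the progenitors, sli, robo1, robo2 and the plexin genes had the higher levels, the semaphorin genes were intermediate, and side, robo3 and beat-Ia were at or near 0. On CPM per kilobase of exon, a scale on which genes can be compared, robo2 averaged 75.5 ± 9.70 in libraries labelled swm RNAi and 71.3 ± 10.8 in the controls (SD, n = 3 each). The value for sli was 49.4 ± 1.56 in libraries labelled swm RNAi and 67.6 ± 12.3 in the controls, and that for PlexA was 71.4 ± 4.36 in libraries labelled swm RNAi and 48.1 ± 12.0 in the controls. In the controls these placed robo2, sli and PlexA at the 92.9th, 92.5th and 89.5th percentile of the 11509 genes with a count. Next in the controls came robo1 (16.1 ± 3.08) and PlexB (15.2 ± 1.09), and then Sema1a (4.98 ± 4.35) and Sema2b (4.37 ± 1.18). The ranges of neighbours in the order of control levels overlapped, except for PlexA above robo1, PlexB above Sema1a and Sema2b above robo3. Within each control library sli also stood above PlexA, at 75.6, 53.4 and 73.7 against 61.5, 38.1 and 44.7.

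Of the 8 members with enough counts to test, side and Sema2b were higher in libraries labelled swm RNAi and none was lower at an edgeR adjusted p below 0.05. Over all 8899 genes tested, 3.17% were called, 2.34% as higher and 0.832% as lower. The members were proposed with this contrast known, so nothing is read from the difference in share. The median log2 fold change of the 8 was 0.22, against 0.033 over all genes tested. With 3 control counts, side could pass the filter on low counts only through the libraries where it was high. In 5 of the 8, the groups did not overlap (sli lower, robo1, side, Sema2b and PlexA higher). Over all genes tested the groups did not overlap in 20.2%, with 12.3% higher and 7.94% lower.

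The gene side stood at 3.37, 7.21 and 3.51 CPM in libraries labelled swm RNAi, from 48, 138 and 51 counts. In the controls it had 0, 3 and 0 counts, or 0.147 CPM in replicate 2. All 3 swm RNAi libraries were above all 3 controls. Genes with any count numbered 9361, 10827 and 8677 in control replicates 1 to 3. In libraries labelled swm RNAi they numbered 10091, 11084 and 10380. The part of this difference in the 0 counts of side was not tested. The ratio of pooled CPM was 99.4, with an exact 95% interval of 33.6 to 486 that covers counting error only, and the fitted log2 fold change was 6.38 (SE 1.38). Even so, side stayed low: on CPM per kilobase of exon it reached 0.401 ± 0.186 in libraries labelled swm RNAi and 0.0042 ± 0.0072 in the controls (SD, n = 3 each). Its receptor gene beat-Ia had 0 counts in all 6 libraries, where 3 counts, the level a count of 0 still allows, correspond to 0.147 to 0.211 CPM. In bulk RNA of sorted cells, fewer cells of a type and less RNA per cell cannot be told apart.

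Sema2b was at 43.5, 61.9 and 54.3 CPM in libraries labelled swm RNAi, against 29.5, 17.8 and 20.5 CPM in the controls. The lowest swm RNAi library stood above the highest control, with a log2 fold change of 1.24 (SE 0.24, 95% interval 0.72 to 1.76). Sema1a, the ligand of Plexin A, was at 31.9, 49.9 and 43.0 CPM in libraries labelled swm RNAi, against 101, 18.2 and 32.8 CPM in the controls. Control replicate 1 was the highest of the 6 and control replicate 2 the lowest, so that the groups overlapped. Its log2 fold change of -0.28 (SE 0.64) became 0.70 without control replicate 1, and neither value passed the test.

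Of the plexin genes, PlexA stood above every control and PlexB did not. PlexA was at 785, 785 and 704 CPM in libraries labelled swm RNAi, against 652, 405 and 475 CPM in the controls, with no overlap and a log2 fold change of 0.57 (SE 0.20, 95% interval 0.13 to 1.01). It was not called over all genes, and was called only when control replicate 1 was left out (0.77). PlexB, the receptor of Sema-2b, was at 92.7, 109 and 101 CPM in libraries labelled swm RNAi, against 115, 99.2 and 107 CPM in the controls. The groups overlapped, with a log2 fold change of -0.09 (SE 0.15, 95% interval -0.42 to 0.25).

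**Figure D1:**
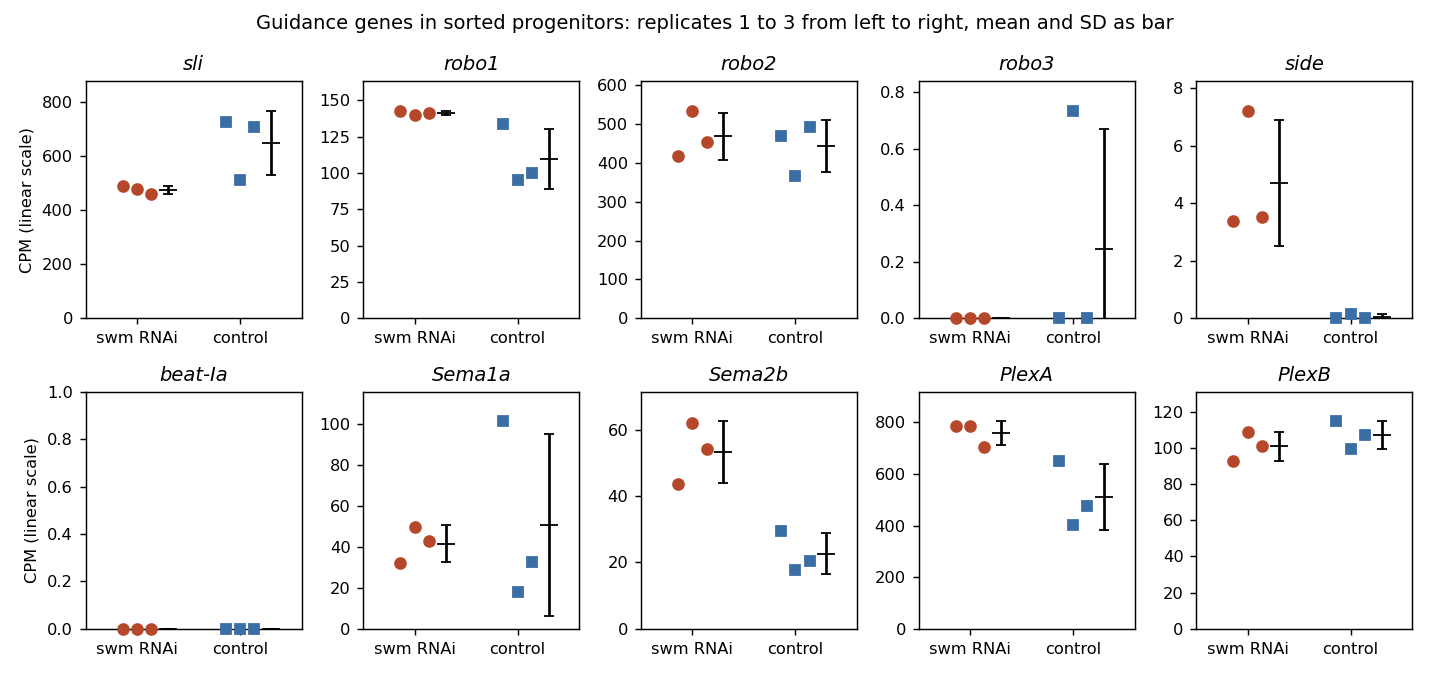
CPM of the 10 guidance genes in each sorted progenitor library, swm RNAi left and control right, on linear axes that differ by gene; black bars are the mean and SD of 3 libraries. The points of side lie at 3.37 to 7.21 CPM against at most 0.147 CPM in the controls, those of robo1, Sema2b and PlexA also stand above every control, and those of sli below every control.

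The Slit ligand gene sli was at 489, 477 and 460 CPM in libraries labelled swm RNAi, against 727, 514 and 709 CPM in the controls. Every swm RNAi library was below every control, control replicate 2 lying closest to them. Its log2 fold change stood at -0.45 (SE 0.18, 95% interval -0.85 to -0.05), which was not called over all genes. The receptor gene robo1, at 143, 140 and 141 CPM in libraries labelled swm RNAi against 134, 95.1 and 100 CPM in the controls, lay on the other side. Its groups did not overlap, with a log2 fold change of 0.37 (SE 0.17, 95% interval -0.0074 to 0.74) that was not called.

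For robo2, the Slit receptor known to act in the progenitors, the libraries labelled swm RNAi gave 416, 534 and 454 CPM and the controls 469, 366 and 493 CPM. The groups overlapped, and the log2 fold change of 0.08 (SE 0.18) had a 95% interval of -0.32 to 0.49. Exons of 2 overlapping genes together cover 41.04% of the exon bases of robo2. They are asRNA:CR44897 on the opposite strand and lncRNA:CR44898 on the same strand. The use of strand in counting was not given, so reads of robo2 and of these genes cannot be told apart there. The antisense gene itself had at most 23 counts in a library, and lncRNA:CR44898 had 0 in each. Reads over the shared exons may be missing from these counts, so they do not bound the part of either gene. The third receptor gene, robo3, had 15 counts in control replicate 2 (0.735 CPM) and 0 counts in the other 5 libraries, and it was not tested.

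**Figure D2:**
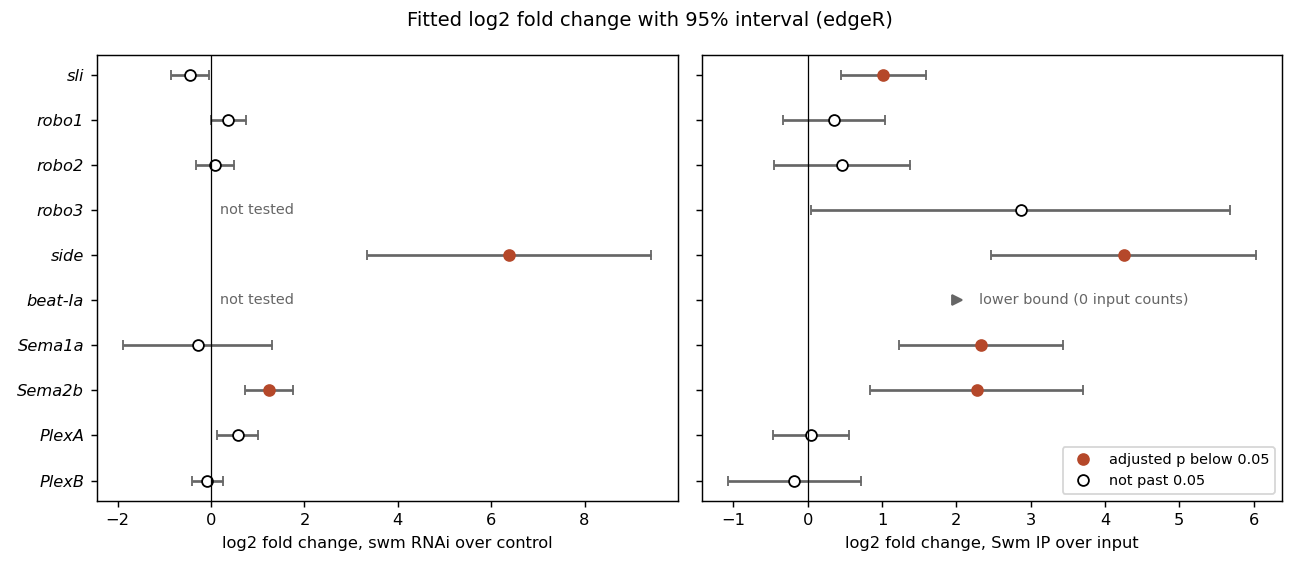
Fitted log2 fold changes (horizontal axes) of the guidance genes, swm RNAi over control on the left and Swm IP over input on the right, with 95% intervals from edgeR; filled points have an adjusted p below 0.05 over all genes. The called genes were side and Sema2b on the left and sli, side, Sema1a and Sema2b on the right, where beat-Ia is drawn at its lower bound.

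The call of side was lost when any swm RNAi library was left out, with log2 fold changes of 5.94 to 6.57 in those fits, and that of Sema2b when swm RNAi replicate 2 (1.12), swm RNAi replicate 3 (1.22) or control replicate 2 (1.08) was left out. The authors' deposited table of DESeq2 results lists 9 of the 10 genes, and 2 of them, side (log2 6.54) and Sema2b (log2 1.21), have an adjusted p below 0.05 there.

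Marker lists of other cells held genes on either side; single markers named here were chosen after their values were seen. Of 10 enteroendocrine markers tested, 1 was called higher: Syt4, with 401, 663 and 383 counts in libraries labelled swm RNAi and 0 counts in each control. The 16 enteroendocrine markers summed to 43.9 to 63.6 CPM in libraries labelled swm RNAi and 11.5 to 40.1 CPM in the controls. Without Syt4 the sums overlapped, at 15.8, 12.1 and 37.2 CPM in libraries labelled swm RNAi and 11.5, 38.9 and 40.1 CPM in the controls. The peptide genes Dh31 and Mip had 0 counts in all 6 libraries. Of 4 glial markers tested, 1 was called higher: loco, at 294, 254 and 234 CPM in libraries labelled swm RNAi, against 100, 130 and 82.8 CPM in the controls. The other abundant glial marker, moody, lay the other way, at 104, 124 and 99.6 CPM in libraries labelled swm RNAi and 172, 148 and 158 CPM in the controls, and repo and gcm were at 0 in all 6. Glial markers summed to 346 to 402 CPM in libraries labelled swm RNAi and 245 to 285 CPM in the controls. Without loco the direction turned, at 108, 126 and 112 CPM in libraries labelled swm RNAi and 177, 155 and 162 CPM in the controls. Enterocyte markers summed to 674 to 1400 CPM in libraries labelled swm RNAi and 497 to 663 CPM in the controls, with none of 11 called. The abundant ones did not move together. In libraries labelled swm RNAi alphaTry was at 191, 166 and 473 CPM, against 72.2, 114 and 146 CPM in the controls. With it betaTry and Jon65Aiii also lay above every control. Myo31DF lay below every control, at 259, 247 and 239 CPM against 331, 282 and 316 CPM. Neuronal markers overlapped, at 143 to 194 CPM in libraries labelled swm RNAi and 60.0 to 196 CPM in the controls, as did visceral muscle, tracheal and hemocyte markers. The part of these cells in the values of side, Sema2b and sli was not tested.

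By the root mean square difference of centred log2 CPM over the 6 progenitor libraries, the genes most like sli among 6676 compared were CG6923 (0.0558), Saf-B (0.0572) and Frl (0.0708). The genes most like robo2 were Sin3A (0.0534), Psn (0.0535) and Gem3 (0.0552).

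In the Swm precipitates of whole intestines, the transcripts of the Slit ligand, of sidestep and of both semaphorins stood well above the input, and those of robo1, robo2 and both plexins did not. All 10 members could be tested, 4 were called higher (sli, side, Sema1a and Sema2b) and none lower. Over all 8375 genes tested, 18.2% were called, 9.25% as higher and 8.97% as lower, or 775 and 751 genes. With library sizes alone in place of TMM the split was 1114 higher and 417 lower. By a rule of size, 5 members (robo3, side, beat-Ia, Sema1a and Sema2b) exceeded the input at least 2-fold in each IP library, as did 11.6% of all genes, while no member and 10.3% of all genes lay at least 2-fold below it in each. The median log2 ratio of the 10 was 1.51 with beat-Ia at its lower bound, against 0.0041 over all genes. With at most 6 input counts, side, robo3 and beat-Ia passed the filter on low counts only through the IP libraries. The sign of their ratios was therefore largely set by the filter. The fit had only 1 residual degree of freedom, so the single input is assumed to vary like the IP libraries.

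The ligand gene sli gave 167 and 152 CPM in Swm IP replicates 1 and 2, against 78.7 CPM in the input (318 counts). Both IP libraries were about as far above the input, and the log2 ratio was 1.02 (SE 0.29, 95% interval 0.45 to 1.59). The transmembrane ligand gene Sema1a gave 32.3 and 35.0 CPM in the IP libraries, against 6.68 CPM in the input (27 counts). Its log2 ratio of 2.33 (SE 0.56) came with close values in the 2 precipitates. Sema2b gave 23.1 and 15.8 CPM in the IP libraries, against 3.96 CPM in the input (16 counts), a log2 ratio of 2.27 (SE 0.73).

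The largest called ratio among the members was that of side, at 47.3 and 11.8 CPM in the IP libraries (123 and 107 counts), against 1.48 CPM in the input (6 counts). Both precipitates were above the input, but they differed from each other, with ratios of 31.8 (exact 95% interval 14.2 to 88.5) in replicate 1 and 7.92 (3.52 to 22.1) in replicate 2. The fitted log2 ratio was 4.25 (SE 0.87). The sign says little, as only the IP libraries carried side past the filter on low counts. Its receptor gene beat-Ia, at 0 counts in the progenitors, gave 14 and 21 counts in the IP libraries (5.38 and 2.31 CPM) and 0 counts in the input. Pooled over the IP libraries, it was at least 4.03-fold higher than the 3 counts that a 0 in the input allows, and it was not called by the fit.

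Among the Roundabout receptors, robo1 gave 61.5 and 65.7 CPM in the IP libraries, against 49.98 CPM in the input (log2 ratio 0.35, SE 0.35). For robo2 the IP libraries gave 23.1 and 39.7 CPM and the input 23.0 CPM (log2 ratio 0.47, SE 0.46). IP replicate 1 matched the input for robo2, and replicate 2 was above it. For robo3 the counts were 16 and 46 in the IP libraries (6.15 and 5.05 CPM) and 3 in the input (0.742 CPM), a pooled ratio of 7.14 with an exact 95% interval of 2.33 to 35.5, and it was not called. PlexA gave 443 and 303 CPM in the IP libraries, against 361 CPM in the input, and PlexB gave 31.9 and 22.9 CPM in the IP libraries, against 30.7 CPM in the input. For both plexins the input lay between the precipitates, with log2 ratios of 0.04 (SE 0.26) for PlexA and -0.18 (SE 0.45) for PlexB, which stood at 0.11 on library sizes alone.

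**Figure D3:**
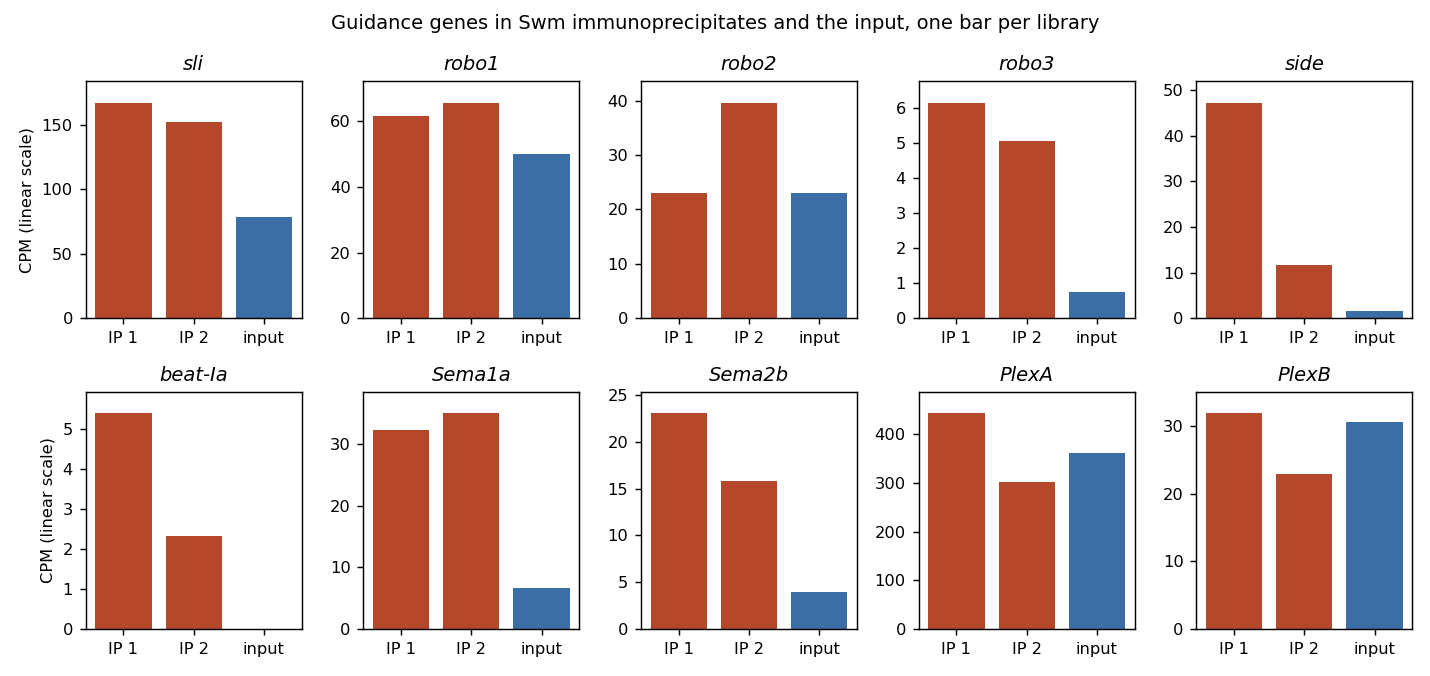
CPM of the guidance genes in Swm IP replicates 1 and 2 and in the input, 1 bar per library, on linear axes that start at 0 and differ by gene. Both IP bars exceed the input for sli, side, Sema1a, Sema2b, robo3 and beat-Ia. They do so by less for robo1 and robo2, where replicate 1 of robo2 (23.06 CPM) all but equals the input (23.01 CPM). The input lies between the IP bars for PlexA (443, 303 and 361 CPM) and PlexB.

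The members with the higher ratios are long genes rich in introns. On BDGP6, where the deposited coordinates of all 10 equal the annotation, sli spans 2R:15869495-15922118 and side 3R:27375088-27437482, both on the minus strand. Sema1a spans 2L:8542147-8672041 and Sema2b 2R:16386524-16431758 on the plus strand, as do robo3 (2L:1256417-1296596) and beat-Ia (2L:16049965-16081684). On the minus strand lie robo1 (2R:22692524-22700970), robo2 (2L:1380086-1420453), PlexA (4:1009895-1027101) and PlexB (4:32478-43778). Introns make up 81.2% to 92.2% of the span in side, robo3, sli, robo2, Sema2b, beat-Ia and Sema1a. The share is 38.3% in PlexA, 37.6% in PlexB and 19.6% in robo1.

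Gene lengths in the CLIP-seq table equal the whole span for 99.6% of 17018 genes compared, and in the RNA-seq table they equal the exons for 99.2%, so intronic reads can enter the CLIP-seq counts of these genes. Across all genes tested the log2 ratio moved with span: its median was -1.18 in decile 1, the shortest genes, where 1.31% were called higher. In decile 10, of 23487 bases and more, the median was 1.19 and 42.6% were called higher. That decile holds 7 of the members (sli, robo2, robo3, side, beat-Ia, Sema1a and Sema2b), of which 4 were called. PlexA and PlexB lie in decile 9 (median 0.82) and robo1 in decile 8 (median 0.44), with none called.

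With the trend removed, side kept its call at a log2 ratio of 2.83. With 6 input counts it still passed the filter only through the IP libraries, so the sign says little here too. Sema1a (0.77) and Sema2b (0.94) lost the call, and sli (-0.37) lost it and turned in sign. Under the same correction PlexA stood at -0.87 and was called lower, and robo2 (-0.83) and PlexB (-0.85) were not called. The fitted value of robo3 was then 1.60 and that of robo1 -0.13. Whether intronic reads or length alone carry the ratios of sli, Sema1a and Sema2b cannot be told apart in counts per gene.

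**Figure D4:**
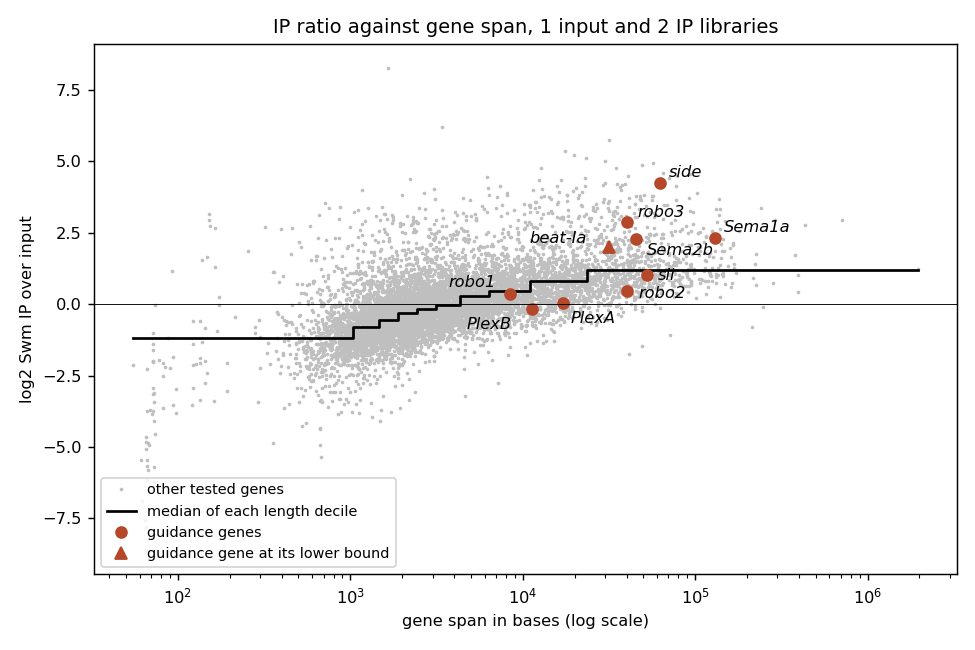
Log2 ratio of Swm IP over input against gene span on a log axis for the genes tested; grey points are other genes, the black steps are the median of each decile of genes by span, and the triangle is the lower bound of beat-Ia. The steps climb from -1.18 to 1.19. The gene side, with 6 input counts, lies far above its step, sli and robo2 lie on or under theirs, and PlexA and PlexB lie below.

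A nested gene is counted at 0 in the CLIP-seq table in nearly every case: of genes with at least 100 RNA-seq counts, 455 of 457 inside another gene on the same strand and 608 of 613 on the opposite strand had 0 counts there, against 58 of 6769 not nested. Transposons left aside, stretches that the members share with another gene make up 17.76% of the span of sli and 10.13% of that of Sema2b. The share is 6.72% for robo2 and at most 5.32% for the other spans. Of exon bases, 41.04% are shared in robo2, 5.5% in PlexB and 0% in the other members. The part of such stretches in the ratios was not tested.

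Marker lists of the gut tissues differed in their IP values. Neuronal markers summed to 142 to 155 CPM in the IP libraries and 34.1 CPM in the input, with 3 of 11 tested called higher, and tracheal markers to 106 to 175 CPM in the IP libraries and 14.8 CPM in the input, with 3 of 5 higher. Visceral muscle markers summed to 20711 and 26484 CPM in the IP libraries and 6713 CPM in the input, with 1 of 12 called higher, Msp300. That gene alone gave 17757 and 14508 CPM in the IP libraries and 4390 CPM in the input. Without it the muscle sum was 2955 and 11976 CPM in the IP libraries and 2323 CPM in the input, and the myosin light chain gene Mlc2 lay the other way, at 93.0 and 214 CPM in the IP libraries and 258 CPM in the input. Enteroendocrine markers summed to 377 to 400 CPM in the IP libraries and 458 CPM in the input, with 1 of 14 called lower. Enterocyte markers summed to 19719 to 22393 CPM in the IP libraries and 49097 CPM in the input, with 1 of 12 higher and 9 lower. Glial markers summed to 812 and 825 CPM in the IP libraries and 670 CPM in the input, with 1 of 3 called lower. That was Eaat1, at 64.6 and 62.6 CPM in the IP libraries and 140 CPM in the input. Gs2 (626 and 657 CPM, against 458 CPM) and loco (121 and 105 CPM, against 72.5 CPM) lay the other way. Hemocyte markers had 1 of 3 called higher and progenitor markers 2 of 10 higher. The part of these tissues in the ratios of the guidance genes was not tested. The authors' deposited table lists all 10 genes for this comparison, and side (log2 4.33), Sema1a (log2 2.37) and sli (log2 1.05) have an adjusted p below 0.05 there.

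Guidance genes outside the 10 were taken as 4 lists with 56 genes in all. These lists too were chosen with earlier results of these data known. Their shares and p-values are therefore a description, and nothing is read from a difference in share. In the progenitors, of 34 tested, 1 was lower and none higher at an edgeR adjusted p below 0.05. An unadjusted p below 0.05 was found for 9 (26.5%), against 12.4% of all genes tested. Their median log2 fold change was -0.10. The call was otk, off-track, a transmembrane protein first described as a partner of Plexin A. It stood at 16.8, 32.9 and 23.9 CPM in libraries labelled swm RNAi, against 57.7, 52.7 and 58.8 CPM in the controls. No library overlapped, and the log2 fold change was -1.20 (SE 0.24, edgeR adjusted p = 0.0197, adjusted p 1.16e-05 to 0.0927 over the alternatives). The call was lost without swm RNAi replicate 1 (-0.998) and without swm RNAi replicate 3 (-1.18).

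The most abundant of the others did not pass. Of the Slit-Robo partners, 0 of 13 tested were called. The gene trio had a log2 fold change of 0.42 (edgeR adjusted p = 0.307) and the profilin gene chic one of 0.25. Among 5 semaphorin and plexin partner genes, Sema2a, which encodes the other ligand of Plexin B, was at 0.07 and Mical, the oxidase that acts below Plexin A on actin, at -0.20. In the netrin, ephrin, Derailed and Dscam list, 0 of 12 were called. The cell-surface receptor gene Dscam1 stood at 1044, 1287 and 1149 CPM in libraries labelled swm RNAi, against 1985, 1343 and 1430 CPM in the controls. It was lower in each swm RNAi library, with a log2 fold change of -0.45 and an edgeR adjusted p = 0.356. The netrin receptor gene fra was at 0.27.

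Most beat and side paralogs were hardly detected in progenitors, and only 4 of 20 could be tested. The most abundant were beat-IIa (-0.45, edgeR adjusted p = 0.478) and side-V (-0.65, adjusted p = 0.804), of which neither passed. A pair of paralogs, named after their values were seen, shared the low counts and the direction of side. The gene side-VI had 23, 26 and 13 counts in libraries labelled swm RNAi, against 0, 2 and 0 in the controls, and side-III had 6, 11 and 3 counts, against 0 in each control. The first was not called (edgeR adjusted p = 0.272) and the second was not tested. As with side, only the libraries labelled swm RNAi carried side-VI past the filter on low counts. The pattern was not particular to the paralogs. NetB had 2, 27 and 30 counts, against 0, 1 and 0 in the controls, and comm3 had 9, 8 and 34, against 1, 1 and 0. The paralog beat-IIIc leaned the other way with overlap, at 5, 2 and 0 counts, against 10, 0 and 21.

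In the precipitates, 16 of the 50 other guidance genes tested were higher and none lower at an edgeR adjusted p below 0.05. That is 32% called higher, against 9.25% of all genes tested and 42.6% of those in decile 10 by span, where 31 of the 50 and 14 of the 16 calls lie. Of 16 beat and side paralogs tested, 7 were called higher. As 11 of the 16 had at most 3 input counts and passed the filter on low counts through the IP libraries, the sign of their ratios was set by the filter. The input counts of beat-IIa (8), side-V (7) and side-III (5) were also under the minimum of 10. These paralogs too passed only through the IP libraries, which favours ratios above 0. The 7 called were beat-Ib, beat-IIIc, beat-VI, side-II, side-III, side-VI and side-VIII. The most abundant of them, side-VIII, gave 22.7 and 23.0 CPM in the IP libraries, against 4.21 CPM in the input, a log2 ratio of 2.43 (SE 0.68, edgeR adjusted p = 0.00486). The others rested on few input counts: beat-VI had 36 and 30 counts in the IP libraries and 1 in the input, a pooled ratio of 22.8 with an exact 95% interval of 3.95 to 914. For side-II the counts were 23 and 41 in the IP libraries and 1 in the input. With the trend by gene span removed, all 7 lost the call.

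Of the 15 Slit-Robo partners, 5 were higher and none lower in the precipitates. They were the heparan sulfate proteoglycan genes Sdc (log2 ratio 1.104, edgeR adjusted p = 0.000907) and dlp (0.88, adjusted p = 0.0443), whose products belong to a class that helps Slit bind Robo. With them were the kinase gene Abl (1.64, adjusted p = 8.25e-05), ena (0.89, adjusted p = 0.0439), which encodes an actin regulator bound by Robo, and Sos (1.36, adjusted p = 0.000359), a Ras and Rac exchange factor gene. The profilin gene chic (-0.07, or 0.21 on library sizes alone) and the glypican gene dally (0.53), the most abundant of the list, did not pass, and with the trend by gene span removed dally was called lower (-0.91). Sos alone of the 5 kept its call with the trend by gene span removed, at 1.04.

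Mical was the 1 call of 5 semaphorin and plexin partners, at 890 and 904 CPM in the IP libraries, against 318 CPM in the input. The precipitates were close to each other, with a log2 ratio of 1.50 (SE 0.29, edgeR adjusted p = 2.96e-05), or 0.19 and no call with the trend removed. Sema5c (0.48) did not pass. In the netrin, ephrin, Derailed and Dscam list 3 of 14 were higher: NetB (2.31, edgeR adjusted p = 0.0499), Dscam1 (1.07, adjusted p = 0.0342) and Dscam4 (0.95, adjusted p = 0.0423). The netrin genes differed between precipitates. NetA gave 27.7 and 193 CPM in IP replicates 1 and 2, against 31.4 CPM in the input, and NetB gave 21.1 and 75.1 CPM in them, against 9.90 CPM in the input. The ratios of NetA (1.84) and fra (0.24) did not pass, and fra was called lower with the trend removed (-1.01).

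**Figure D5:**
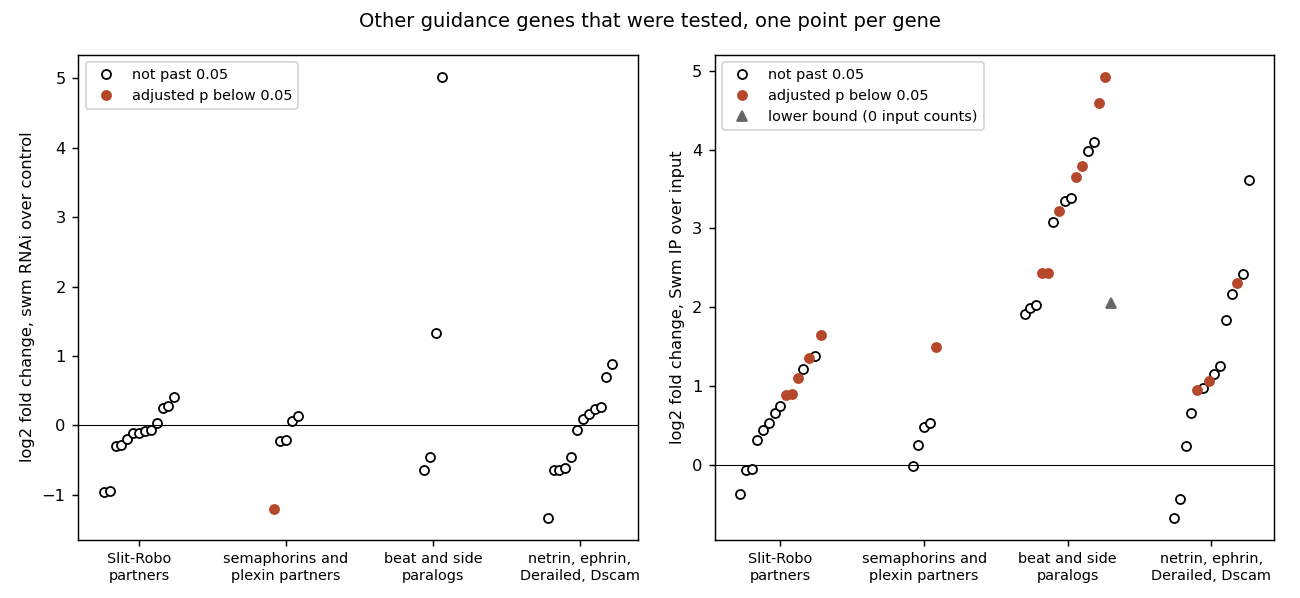
Log2 fold changes of the other guidance genes that were tested, 1 point per gene in 4 lists, swm RNAi over control on the left and Swm IP over input on the right; filled points have an edgeR adjusted p below 0.05. On the left otk (-1.20) is the single filled point, and on the right 7 beat and side paralogs, 5 Slit-Robo partners, 3 genes of the netrin list and Mical are filled. The beat and side paralogs with few input counts had to lie above 0.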

How the data were processed

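RNA-seq was made from 3 swm RNAi and 3 control sorted progenitor samples, and CLIP-seq from 2 Swm IP libraries and 1 input. For both, the authors deposited gene-level raw counts, in tables of 17807 rows, of which 1 without a gene name held at most 5 counts in a library and was left out. Per the submitters' processing notes, the tools included STAR 2.7.3a, featureCounts from Subread 2.0.0, cutadapt 2.9, SAMtools 1.10 and DESeq2. The genome build, annotation and strand setting are not given in the sources used here. The authors' deposited comparison tables hold log2 fold changes, their standard errors (handled as a score) and adjusted p-values, and are used only where named. A further 9 per-sample columns in them were not used.

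Counts were tested over all genes in R 4.3.3 by the robust quasi-likelihood test of edgeR 4.0.16, after filterByExpr (minimum count 10), with TMM scaling, Benjamini-Hochberg adjustment and a threshold of 0.05. SEs were computed as log2 fold change over the square root of F. CPM uses TMM-scaled sizes, and the rule of size uses log2 CPM with a prior count of 2. Gene spans, exons and overlaps are from the BDGP6 annotation. The length correction is a loess offset (span 0.3). A group at 0 was set at 3 counts over the group, and intervals from counts cover counting error only.

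The members and lists were chosen with earlier results of these data known. Named are all members, swm, each other listed guidance gene past the threshold in either comparison, the 2 of each list with the highest mean CPM, and the 3 genes of at least 5 CPM most like sli and robo2. Gene names are those of the tables. The scripts were tested on simulated data. Alternatives were DESeq2 1.42.0, its size factors within edgeR, library sizes alone, other filters, the robust option off, a replicate block, each library left out, the length correction, and a fit without mitochondrial and tRNA genes. Replicates differed beyond sampling noise. The chi-square per degree of freedom was 28.9 to 48.1 among swm RNAi libraries, 133 to 233 among controls and 23.7 between the IP libraries. Separate crosses are not stated, so a p-value reflects only how these samples spread, which may be technical.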

Additional observations from a re-analysis of the deposited data

How the results depend on the processing

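Calls over all RNA-seq genes (282) became 469 with DESeq2 and 527 with no filter, and 141 to 392 with a library left out, 392 being without control replicate 1 and 141, 146 and 161 without each swm RNAi library. The members called ranged from 0 to 3 with a library left out (0 without swm RNAi replicate 2 or 3) and stayed side and Sema2b in the other RNA-seq alternatives. The other guidance genes called (1) were 3 with no filter, 2 with the replicate block and 0 to 2 with a library left out. Same-numbered libraries did not deviate together (correlations -0.063, -0.049 and 0.004), so the numbers were not taken as pairs. The replicate block gave 287 calls, 243 of them shared, with Sema1a at 0.085 and swm at 0.0073 in place of values below 0. With a library left out, robo2 ranged from -0.049 (without control replicate 2; -0.021 without swm RNAi replicate 2) to 0.17, Sema1a from -0.69 to 0.70 and Sema2a from -0.035 to 0.16, and swm turned positive at 0.035 to 0.063.

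Calls over all IP genes (1526, 775 higher and 751 lower) became 934 with DESeq2 and 649 with the length trend removed (130 higher, 519 lower). Library sizes alone gave 1114 higher and 417 lower and put the median over all genes at 0.29, against 0.0041, with PlexB at 0.11 and chic at 0.21. The 4 members called were 2 with the length trend removed (side, and PlexA as lower) and the same 4 in the other alternatives. The 16 other guidance genes called were 7 with DESeq2, 9 with no filter, 10 at a minimum count of 50, 10 with the robust option off and 6 with the length trend removed, of which Sos alone was among the 16 and 5 were lower (dally, fra and, named after their values were seen, comm3, Eph and Ephrin). With that trend removed, 15 of the 50 other guidance genes turned in sign, 14 of them to below 0. Among genes named for this comparison, those that turned were sli -0.37, robo1 -0.13, robo2 -0.83, PlexA -0.87, Sdc -0.40, dlp -0.41, ena -0.15, dally -0.91, Sema5c -0.33, Dscam1 -0.37, Dscam4 -0.38 and fra -1.01. The cause was not tested. The rule of size took 5 or 6 members in every alternative. No paired analysis was possible because the Swm IP and input libraries share only 1 replicate number. With 0 to 27 input counts for side, beat-Ia, robo3, Sema1a and Sema2b, depth limits the precision of their ratios.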
